A study of Mus musculus with 6 samples.

Results

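The mostly methylated circRNAs of normal mouse retina were the 1103 circRNA probes whose mean m6A methylation level over the 3 room-air control (RA) arrays was at least 50%. They were 7.75% of the 14236 circRNA probes on the array. They were chosen by this level from the 5156 probes that all 6 arrays flagged as well above background in each channel, and were 21.4% of those. The level is the share of a circRNA's normalized signal that lay in the fraction bound by the anti-m6A antibody (IP) rather than in the unbound supernatant (Sup). Among the 5156 probes the RA levels alone made the choice, so they are a description. Only the arrays of the oxygen-induced retinopathy (OIR) group give levels that the choice did not use. Their background flags did enter the choice, so a circRNA near background in OIR in IP or Sup could not be a member.

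Each array held 1 sample, made by pooling 4 retinas from 2 C57BL/6J mice at postnatal day 17. The 3 RA samples came from pups kept in room air throughout. The 3 OIR samples came from pups placed in 75% oxygen at postnatal day 7 and returned to room air at day 12, a model in which vessels are lost in high oxygen and grow back abnormally. The deposited labels call this exposure hypoxic and the study's methods call it hyperoxic. All 6 samples were treated with RNase R, an enzyme that degrades linear RNA, after immunoprecipitation. IP was labelled with Cy5 and Sup with Cy3 on every array, so a difference between dyes and a difference between fractions cannot be told apart, and the number of arrays limits the precision.

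N6-methyladenosine (m6A) is a methyl mark that a complex around METTL3 and METTL14 writes on adenosines of RNA and that FTO and ALKBH5 can remove. Proteins with a YTH domain bind it and affect splicing, export, translation and decay. Circular RNAs are closed loops made when a splice donor is joined to an acceptor upstream of it. They lack free ends, are long-lived and are abundant in neural tissue such as retina. The antibody takes down a whole molecule, so a circRNA with a single methylated site and a circRNA with many sites can both appear as bound. The probe identifiers are not paired with circRNA names, host genes or positions in the files used here, so members are given by identifier, few are named, and sequences and host gene functions were not analysed. None of the 18 retinal and other cell type markers looked for (0 of 18) had a linear probe on the array, so the tissue label could not be checked against markers.

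The mean RA level of the 1103 circRNAs ran from 50.04% to 75.1%, with a median of 56.5% and quartiles of 53.1% and 60.4%. The group was crowded towards its lower bound. There were 449 circRNAs (40.7%) from 50% up to 55%, 358 (32.5%) from 55% to 60%, 200 from 60% to 65%, 79 from 65% to 70% and 17 at 70% or more. A level of 60% or more was reached by 296 (26.8%). A level of 50% means that the IP to Sup ratio of the probe equalled the mean log2 ratio of the spike-in RNAs on that array. The spike-in probes were recognised by their names, and the sources used here do not say whether they are the m6A controls of the study or which of them are methylated. The level is therefore relative to these probes, "mostly methylated" names the rule and not an absolute share of methylated molecules, and the number of circRNAs above it moved with that ratio. Raising the log2 spike-in factor of the 3 RA arrays together by 1 standard error left 943 circRNAs at 50% or more, and lowering it by the same amount left 1263. The spike-in log2 ratio itself was 0.94, 0.87 and 0.80 in RA and 0.22, 1.28 and 1.22 in OIR, with standard errors over the 102 spike-in probes of 0.0836 to 0.131. The factor of OIR array 1 was thus the lowest of the 6.

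The circRNAs nearest the bound were separated by less than their own spread. Just inside it, ASCRP4012582 had RA levels of 49.1%, 48.0% and 53.0%, a mean of 50.04%. Just outside it, ASCRP4012450 had RA levels of 56.3%, 48.9% and 44.7%, a mean of 49.97%. On the OIR arrays the order of these neighbours turned, since ASCRP4012582 had a mean of 47.6% ± 4.92 (SD, n = 3) and ASCRP4012450 a mean of 52.4% ± 2.60 (SD, n = 3).

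At the top of the range, ASCRP4014191 had RA levels of 80.9%, 74.0% and 70.5%, a mean of 75.1% ± 5.32 (SD, n = 3). Its levels on the OIR arrays were 69.7%, 84.1% and 78.8%, which overlapped the RA values at both ends. ASCRP4012406 followed, with RA levels of 78.2%, 70.1% and 74.2% and OIR levels of 67.2%, 83.3% and 75.3%. For both circRNAs OIR array 1 was the lowest array and OIR array 2 the highest. The difference between these leading circRNAs was smaller than the spread of either over its 3 RA arrays.

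**Figure D1:**
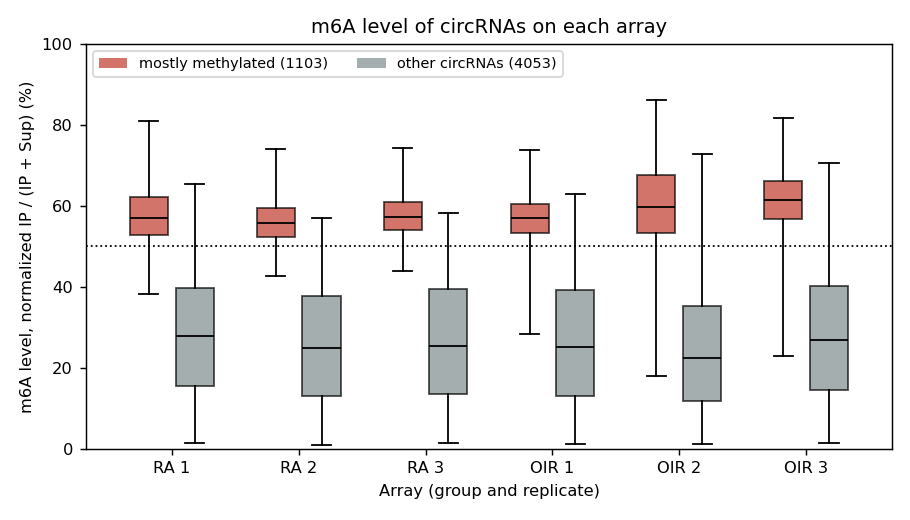
m6A level in percent (normalized IP over normalized IP plus Sup) on each of the 6 arrays, for the 1103 mostly methylated circRNAs (red) and the 4053 other circRNAs measured in each channel (grey). Boxes span the quartiles with the median as a line, whiskers reach the lowest and highest probe, and the dotted line is the 50% bound that was set on the RA mean. The red medians lie between 55.8% and 61.4% on all 6 arrays and the grey medians between 22.5% and 27.9%.

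The high levels held on the OIR arrays, whose levels had no part in the choice, although their background flags did. On RA arrays 1, 2 and 3 the median level of the 1103 circRNAs was 56.9%, 55.8% and 57.3%, and on OIR arrays 1, 2 and 3 it was 57.0%, 59.6% and 61.4%. The other 4053 circRNAs had medians of 27.9%, 24.8% and 25.4% in RA and 25.1%, 22.5% and 26.9% in OIR. The lowest OIR median of the mostly methylated circRNAs lay below the highest RA median, so the groups overlapped. On OIR arrays 1, 2 and 3, 1018 (92.3%), 937 (85.0%) and 1037 (94.0%) of the 1103 were at 50% or more. Over all 5156 circRNAs the shares at 50% or more on those arrays were 23.9%, 21.6% and 27.5%.

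All 3 OIR arrays were at 50% or more for 885 of the mostly methylated circRNAs (80.2%), against 18.3% of all 5156 circRNAs and 60 (1.48%) of the other 4053. All 3 RA arrays were at 50% or more for 845 (76.6%), so an RA mean over the bound did not require each array to be over it. There were 773 circRNAs at 50% or more on all 6 arrays and 17 at 50% or more on no OIR array. By the OIR mean, 1040 (94.3%) were at 50% or more, and 63 were below it, with a median of 48.2% among them. Of these 63, 4 were under 40% and 1 was under 30%. The same rule applied to the OIR arrays chose 1231 circRNAs, of which the 1040 shared ones were 84.5%.

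Persistence followed the RA level. Of the 449 circRNAs from 50% to 55% in RA, 87.3% had an OIR mean of at least 50%, and 261 (58.1%) were at 50% or more on all 3 OIR arrays. From 55% to 60% the counts were 353 and 333 (93.0%) of 358. From 60% to 65% they were 199 and 195 (97.5%) of 200. All 79 circRNAs from 65% to 70% and all 17 at 70% or more were at 50% or more on every OIR array. The median OIR level of the 5 classes was 54.3%, 60.2%, 65.6%, 71.0% and 74.6%, in the order of their RA levels. Across the 1103 circRNAs the RA and OIR means had a Spearman correlation of 0.867 and a Pearson correlation of 0.853, which is a description, since both means come from the same probe with the same base composition and dyes.

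A choice made on 2 RA arrays was read on the third. Without RA array 1 the rule chose 1141 circRNAs, and 81.2% of them were at 50% or more on that array. Without RA array 2 it chose 1142, with 84.6% at 50% or more on the array left out. Without RA array 3 it chose 1045, with 92.1%. The median level on the array left out was 56.5%, 55.4% and 57.5%, and the OIR mean was at least 50% for 88.9%, 93.0% and 96.1% of the circRNAs chosen.

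The separation of the mostly methylated circRNAs from the others could also be read without the spike-in factor. The median log2 IP to Sup ratio of the 1103 exceeded that of the other 4053 by 1.77, 1.94 and 1.98 in RA and by 1.99, 2.35 and 2.11 in OIR, and this difference within an array is the same for any constant scaling of a channel. The rule used this ratio on the RA arrays, so a gap in RA was set by the choice and is a description. The OIR values lay above the RA values in these background-subtracted intensities, but RA array 3 and OIR array 1 were nearly equal. The OIR minus RA change of this difference, 0.21 on the log2 scale in the fit, was 0.10 with processed intensities, 0.07 with loess, 0.04 with normexp and 0.09 without OIR array 2. When the 5156 circRNAs were ranked by this ratio, 958 (86.9%), 934 (84.7%) and 933 (84.6%) of the 1103 were among the top 1103 on OIR arrays 1, 2 and 3. On the RA arrays, which made the choice, 959, 1014 and 999 were among them.

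**Figure D2:**
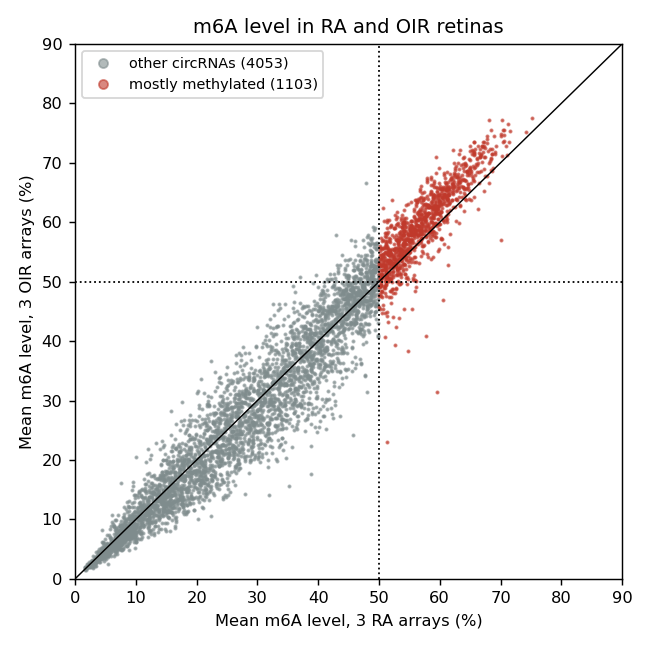
Mean m6A level in percent over the 3 RA arrays (horizontal axis) and over the 3 OIR arrays (vertical axis) for the 5156 circRNAs measured in each channel, with the 1103 mostly methylated ones in red. Dotted lines mark 50% and the solid line marks equal levels. Of the red points, 1040 lie above the horizontal dotted line, 891 lie above the line of equal levels, and a few lie far below it.

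The order of the levels among the 1103 circRNAs did not divide the arrays by group. The Spearman correlation of the levels across these circRNAs was 0.845 between RA array 1 and OIR array 2 and 0.818 between OIR arrays 2 and 3. It was 0.567 between RA arrays 1 and 3 and 0.546 between OIR arrays 1 and 2. RA array 2 was nearest to RA array 3 (0.793) and OIR array 1 (0.780). RA array 1 thus ordered these circRNAs more like OIR arrays 2 and 3 than like RA array 3. The values are a description across 1103 probes that share an array.

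The spread of a level over replicates was a few percentage points. The median SD over the 3 RA arrays was 2.37 points for the mostly methylated circRNAs and 3.04 points for the others. Over the 3 OIR arrays it was 4.59 points against 3.10. The lower RA spread of the members did not hold among the brightest circRNAs, as given below. The RA levels behind this spread entered the rule only through their mean, and the OIR levels did not enter it. The steadiest member, ASCRP4013196, had RA levels of 52.1%, 52.2% and 52.0% and OIR levels of 55.1%, 59.1% and 52.1%. The least steady, ASCRP4013022, had RA levels of 38.3%, 69.8% and 59.9%, and was in the group although RA array 1 was far below the bound. Its OIR levels were 60.6%, 40.4% and 44.2%, so the groups overlapped over nearly their whole range. The error of a single spot could be read from linear transcripts, each printed on 10 spots of the array. For the 16 linear probes well above background on every spot, the SD of the level between spots of an array had a median of 1.82 points, from 0.648 to 3.35.

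In background-subtracted intensities the mostly methylated circRNAs were the brighter ones, an order that the scanner's processed intensities did not keep. Brightness includes the IP signal that chose the members. When the 5156 circRNAs were divided into 5 classes of equal size by mean abundance (normalized IP plus Sup over the 6 arrays), the mostly methylated share was 6.88%, 13.4%, 20.8%, 26.8% and 39.2% from class 1, the dimmest, to class 5, the brightest. Class 5 thus held 404 of the 1103. As a share of all signal of the 5156 circRNAs, the 1103 gave 55.7%, 59.6% and 55.3% of the IP intensity in RA and 63.1%, 60.2% and 56.7% in OIR. They gave 17.3%, 19.3% and 16.6% of the Sup intensity in RA and 25.4%, 16.3% and 16.0% in OIR, where OIR array 1 stood highest. The median SD of their RA level fell with brightness, from 4.03 points in class 1 to 1.95 in class 5. That of the other circRNAs fell from 4.38 to 1.68, so in class 5 the members were not the steadier ones. The spots of the 1103 were spread over the slide, with a share of 20.5% to 22.8% in 4 bands of the array's rows and 19.7% to 23.4% in 4 bands of its columns.

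The brightest member, ASCRP4011502, had background-subtracted IP intensities of 71422, 58146 and 26001 in RA and 37744, 50522 and 31605 in OIR. Its level was 61.6%, 57.6% and 55.9% in RA and 64.7%, 59.6% and 52.8% in OIR, with the OIR values on both sides of the RA values. The next brightest, ASCRP4005042, was at the bound, with 46.5%, 50.9% and 52.8% in RA and 49.4%, 54.1% and 55.8% in OIR.

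Membership of the bright circRNAs depended on the intensity that was read. The values given so far use background-subtracted intensities. The scanner software also gives processed intensities, in which it has balanced the dyes along the intensity range. With these in place, scaled to the same spike-ins, 1008 circRNAs were at 50% or more in RA, of which 713 were among the 1103. All members of abundance classes 1 to 3 stayed (71 of 71, 138 of 138 and 214 of 214). In class 4, 229 of 276 (83.0%) stayed, and in class 5, 61 of 404 (15.1%). The share of all circRNAs at 50% or more was then 17.2%, 24.2%, 27.9%, 22.5% and 5.92% from class 1 to class 5, so it was highest in class 3 and lowest among the brightest. By these intensities 684 of the 1103 (62.0%) had an OIR mean of at least 50%. Most spike-in spots were dimmer than the members. The median IP intensity of the 306 spike-in spots was 12.4 to 28.7 on the 6 arrays, against 131 to 307 for the 1103. Of the 34 spike-in probes well above background on every spot and array, 11 lay in the range of class 5, with RA levels of 35.3% to 60.7% and a median of 44.4%, and 9 lay in the range of class 4, with a median of 54.6%. Over all 34, RA levels ran from 24.8% to 66.3%.

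**Figure D3:**
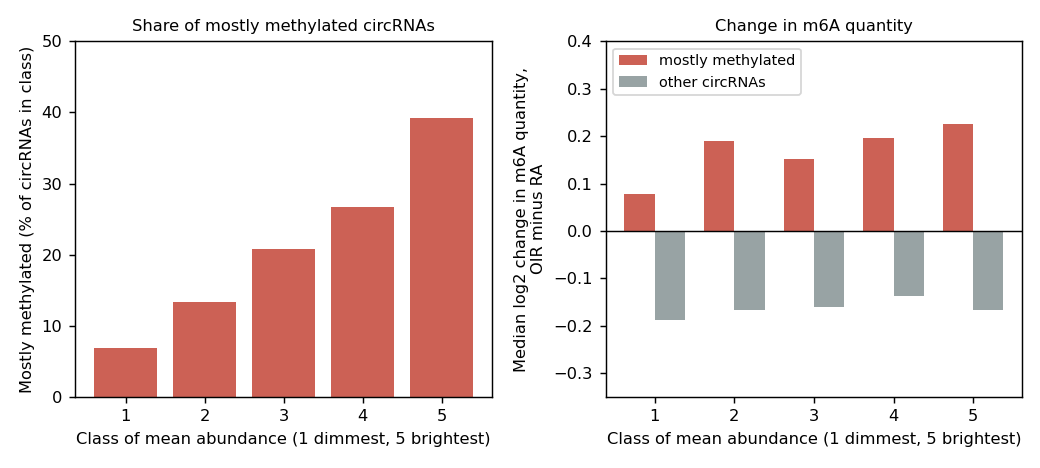
Left, the percentage of circRNAs that were mostly methylated in each of 5 classes of mean abundance (1 dimmest, 5 brightest) among the 5156 circRNAs measured in each channel. Right, the median log2 change in m6A quantity, OIR minus RA, in the same classes for the mostly methylated (red) and the other circRNAs (grey). The share climbs from 6.88% to 39.2% in background-subtracted intensities, whereas with processed intensities the share at 50% or more was 5.92% in class 5, and the red medians lie above 0 and the grey ones below 0 in all 5 classes under the spike-in normalization.

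The linear probes gave a side view of the bound with the same spike-ins. Of the 16 linear transcripts well above background on every spot, 9 had an RA level of 50% or more, and the 16 ranged from 17.0% to 64.9%. The highest, Pex11a, which encodes a peroxisome membrane protein, was at 64.9% in RA and 62.9% in OIR. RNase R had been used against linear RNA, and how that affects these values was not tested.

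The comparison of OIR with RA asks whether retinopathy alters the methylation of these circRNAs. The OIR mean was above the RA mean for 891 (80.8%), against 44.4% of the other circRNAs, and the difference had a median of 2.65 percentage points, with 5% of values under -3.53 and 5% over 7.11. For the other circRNAs the median was -0.368 points. The difference was within 10 points for 98.8% of the mostly methylated circRNAs. The direction rested on the normalization. The median log2 change in level was 0.06 as reported, 0.01 with processed intensities and -0.03 with loess. The share of the 1103 with a higher IP to Sup ratio in OIR, 80.9% as reported, was 58.4% with processed intensities and 35.9% with loess.

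At the study's threshold, a fold change of at least 1.5 with an unadjusted limma p under 0.05, 2 of the 1103 circRNAs (0.181%) differed in level, both lower in OIR. Of all 10480 circRNA probes tested, 4.9% passed, 1.32% as higher and 3.59% as lower. None of the 1103 was called after Benjamini-Hochberg adjustment over the 10480 (0 of all probes), and 4 had an unadjusted p under 0.05, where 7.34% of all probes did. The RA levels made the choice, so these counts are a description. The level has a ceiling: the 58 members over 66.7% in RA could not be 1.5-fold higher. The limit also narrows the room of the other members, since the lowest RA mean was 50.04%. From a high level, a 1.5-fold rise needs a larger rise in the IP to Sup ratio than from a low level. The highest OIR mean of a member was 77.5%. The rule itself thus limited calls of a higher level. On the scale of the log2 IP to Sup ratio, which has no ceiling, 10 members (0.907%) passed, with 6.52% among all probes. They were 4 higher (0.363%), with 2.33% among all probes, and 6 lower (0.544%), with 4.19% among all probes. An unadjusted limma p under 0.05 was found for 11 (0.997%), with 6.66% among all probes. On 91 circRNAs (8.25%) all 3 OIR levels were above all 3 RA levels, with 5.57% among all probes, and on 19 (1.72%) all were below, with 6.77% among all probes.

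Both circRNAs that passed had RA spreads far over the median of the 1103, at 12.6 and 10.7 points (SD, n = 3). ASCRP4006246 had RA levels of 38.4%, 51.8% and 63.6% and OIR levels of 28.4%, 17.9% and 22.9%, with no overlap, the lowest OIR mean of all 1103. ASCRP4002410 had RA levels of 47.3%, 67.1% and 64.2% and OIR levels of 38.7%, 24.9% and 30.6%. In each, RA array 1 was the lowest RA value and OIR array 1 the highest OIR value. The log2 change in level was -1.15 for ASCRP4006246 and -0.93 for ASCRP4002410. Normexp background correction was run with an offset of 50 intensity units. With it the changes were -0.31 and -0.30 and neither passed. ASCRP4002410 also did not pass under median centring, at -0.46, or loess, at -0.52.

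The bound and the unbound signal of these circRNAs were then read apart. The m6A quantity, which is the normalized IP intensity, of ASCRP4006246 was 41.0, 34.7 and 34.6 in RA and 14.9, 16.3 and 12.5 in OIR. Its normalized Sup intensity was 65.8, 32.4 and 19.8 in RA and 37.5, 74.9 and 41.9 in OIR, so Sup overlapped between the groups and IP did not. The log2 change in quantity was -1.34 ± 0.189 (SE), with an adjusted p from limma of 0.0773. ASCRP4002410 had quantities of 49.4, 45.4 and 43.4 in RA and 24.0, 21.3 and 15.6 in OIR, again without overlap. Its log2 change was -1.20 ± 0.217 (SE), with an adjusted p from limma of 0.109.

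Across the 1103 circRNAs the m6A quantity was mostly higher in OIR under the spike-in normalization. The median log2 change was 0.19, where the other 4053 circRNAs had -0.17 and all 10480 probes -0.18. Without OIR array 1 the median of the 1103 was 0.09. The change was above 0 for 73.2% of the mostly methylated circRNAs and for 35.1% of the others. The medians of log2 quantity of the 1103 were 7.42, 7.26 and 7.16 in RA and 7.68, 7.43 and 7.23 in OIR, so the arrays of both groups overlapped and the lowest OIR array stood below 2 of the RA arrays. In the same order, the medians of the other circRNAs were 5.11, 4.69 and 4.81 and then 4.60, 4.73 and 4.66. In bulk tissue, fewer cells of a type and less RNA per cell cannot be told apart.

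At the study's threshold 47 of the 1103 differed in quantity, where 15.2% of all probes did. There were 37 higher in OIR (3.35%), with 1.18% among all probes, and 10 lower (0.907%), with 14% among all probes. The 37 were 29.8% of the 124 circRNA probes called higher. None passed after adjustment, where 0.0668% of all probes did. The smallest adjusted p among members was 0.0773, and 149 had an unadjusted p under 0.05, with 18.3% among all probes. All 3 OIR arrays were above all 3 RA arrays for 319 members (28.9%), with 7.83% among all probes, and below for 33 (2.99%), with 19.2% among all probes. The RA bound signal is part of the level that chose the members, so these calls are not independent of the choice.

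The direction of the quantity change rested on the scaling. Without spike-in scaling the median change of the 1103 was -0.02, and under median centring it was 0.45. With loess it was 0.12, with processed intensities 0.07, with normexp 0.03 and with bright spike-in spots alone 0.09. The change of the 1103 exceeded that of the other circRNAs by 0.35 as reported, 0.29 with processed intensities, 0.19 with loess and 0.13 with normexp. A constant scaling of each array, the filter, the test or a block can hardly move this gap. It was 0.25 to 0.43 when each array in turn was left out. Relative to all 10480 probes, whose median moved from -0.40 without spike-ins to 0.07 under median centring, it was 0.37 as reported, 0.38 under both of these, 0.12 with loess, 0.28 with processed intensities and 0.06 with normexp. The split of 37 higher and 10 lower became 0 and 6 without spike-in scaling, 311 and 5 under median centring and 21 and 9 with loess. It was 4 and 12 with processed intensities, 1 and 4 with normexp and 12 and 12 with bright spike-in spots alone. The count of 47 also moved with single arrays, to 87 without RA array 1, 29 without RA array 2, 31 without OIR array 1 and 72 without OIR array 3.

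**Figure D4:**
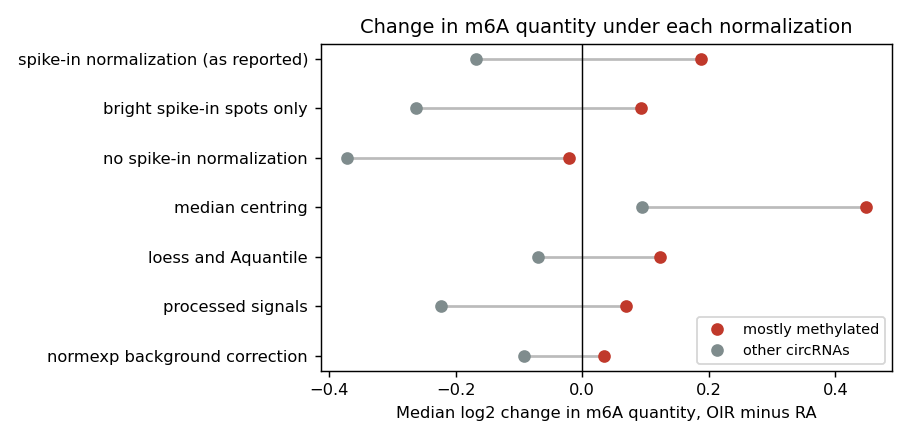
Median log2 change in m6A quantity, OIR minus RA, of the 1103 mostly methylated (red) and the 4053 other circRNAs (grey) under each normalization, joined by a line. The red point lies left of 0, at -0.02, without spike-in normalization, and the joining line is shortest with normexp, at 0.13.

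The arrays were scanned on 2 days, each with both groups. By recorded scan time, RA arrays 1 and 2 and OIR array 2 went together. OIR array 1, OIR array 3 and RA array 3 each had a scan time of their own. Among the 2 RA and 2 OIR arrays of the first day, the median log2 change in quantity was 0.21 for the mostly methylated and -0.17 for the other circRNAs. Between the RA and the OIR array of the second day it was 0.12 and -0.12. The medians of level change were 0.04 and 0.10 on the log2 scale for the 1103, and for the other circRNAs -0.07 and 0.07. In the 5 abundance classes the median quantity change of the 1103 was 0.08, 0.19, 0.15, 0.20 and 0.23 from dim to bright, and that of the others lay between -0.19 and -0.14. The second day holds 1 array of each group and so has no replicate.

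Among the members higher in quantity, ASCRP4007390 had 43.6, 40.5 and 45.2 in RA and 68.5, 69.8 and 77.5 in OIR, a gap wider than the spread of either group. Its log2 change was 0.74 ± 0.165 (SE), with an adjusted p from limma of 0.136. ASCRP4002274 had 52.1, 50.9 and 55.1 in RA and 85.4, 83.1 and 88.0 in OIR, with a log2 change of 0.70 and an adjusted p from limma of 0.136. Their levels overlapped between the groups. ASCRP4007390 was at 56.1%, 57.5% and 62.1% in RA and 57.3%, 62.4% and 70.7% in OIR, and ASCRP4002274 at 49.2%, 51.5% and 62.5% in RA and 51.5%, 51.8% and 61.3% in OIR. Without spike-in scaling the log2 changes were 0.53 and 0.49 and neither passed the threshold.

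The largest fall in quantity was that of ASCRP4013946, from 62.9, 95.8 and 115 in RA to 21.7, 28.8 and 25.4 in OIR. Its log2 change was -1.82 ± 0.271 (SE), with an adjusted p from limma of 0.0832. Its normalized Sup intensity was also lower, at 35.7, 35.7 and 40.9 in RA and 15.5, 24.4 and 17.8 in OIR, without overlap. The level went from 63.8%, 72.8% and 73.7% to 58.4%, 54.1% and 58.8%, also without overlap, and stayed above 50% on every array. Its abundance had a log2 change of -1.52 ± 0.241 (SE), with an adjusted p from limma of 0.226. It passed the unadjusted threshold in quantity and abundance under all 17 alternatives and left-out arrays tried.

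**Figure D5:**
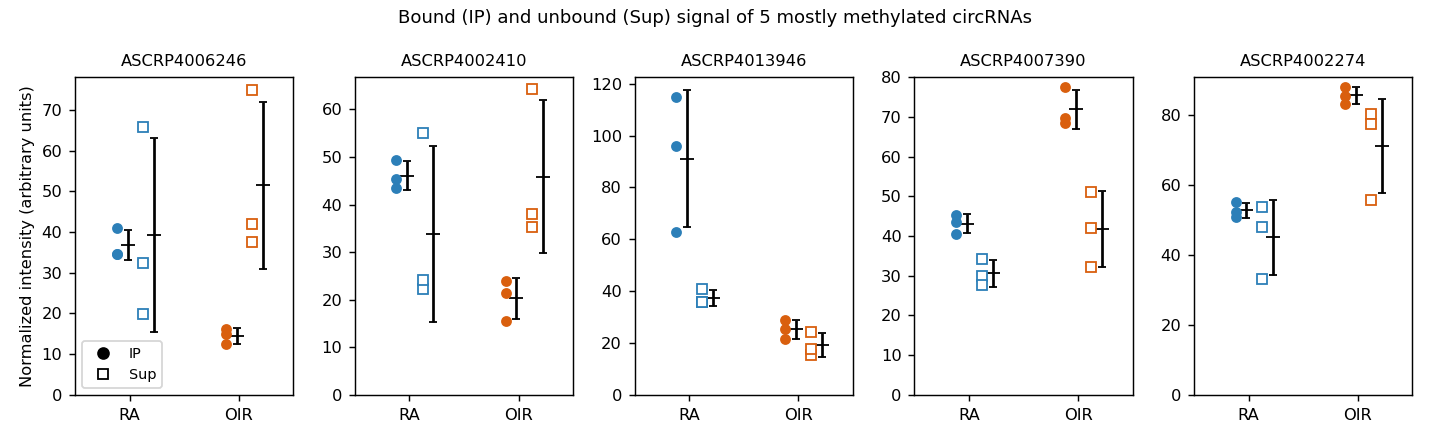
Normalized intensity (arbitrary units) of IP (filled circles) and Sup (open squares) on the 3 RA (blue) and 3 OIR (orange) arrays for 5 mostly methylated circRNAs, with mean ± SD as black bars. IP does not overlap between the groups in any of the 5, and in ASCRP4006246, ASCRP4002410 and ASCRP4007390 Sup does overlap.

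Abundance, the sum of normalized IP and Sup, was also mostly higher in OIR under the spike-in normalization. The median log2 change of the 1103 was 0.12, against -0.16 for the other circRNAs and -0.21 for all probes, and without spike-in scaling it was -0.05. Without OIR array 1 it was 0.01, with 51.0% of the 1103 higher in place of 68.6%. At the study's threshold 20 members (1.81%) differed, where 12.1% of all probes did. They were 15 higher (1.36%), with 0.821% among all probes, and 5 lower (0.453%), with 11.3% among all probes. None passed after adjustment, where 0% of all probes did, and 78 had an unadjusted p under 0.05, with 16.6% among all probes. The split of 15 and 5 became 0 and 2 without spike-in scaling, 261 and 2 under median centring, 30 and 4 with loess, 4 and 12 with processed intensities, 0 and 3 with normexp, 4 and 9 with bright spike-in spots alone and 8 and 11 without OIR array 1. All 3 OIR arrays were above all 3 RA arrays for 229 members (20.8%), with 5.06% among all probes, and below for 26 (2.36%), with 20.8% among all probes. ASCRP4012504 was the circRNA with the smallest p among those higher in abundance, at 659, 615 and 571 in RA and 1073, 1161 and 1003 in OIR. Its log2 change was 0.81 ± 0.174 (SE), with an adjusted p from limma of 0.226, and its level was 49.7%, 49.1% and 52.3% in RA and 51.4%, 44.4% and 46.7% in OIR.

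The median log2 change in normalized Sup was 0.02 for the 1103 and -0.16 for the other circRNAs under the spike-in normalization. On the first scan day it was 0.10 for the 1103, and between the single arrays of the second day -0.12. At the study's threshold 18 members (1.63%) differed in Sup, where 9.5% of all probes did. They were 11 higher (0.997%), with 0.811% among all probes, and 7 lower (0.635%), with 8.69% among all probes. None passed after adjustment, where 0.00954% of all probes did. All 3 OIR arrays were above all 3 RA arrays in Sup for 90 members (8.16%), with 2.73% among all probes, and below for 21 (1.90%), with 17.3% among all probes. The median log2 change in the IP to Sup ratio was 0.17 for the 1103 and -0.04 for the other circRNAs. With loess normalization the ratio turned to -0.06 for the 1103 and -0.13 for the others. The gap between the 1103 and the others in this change was 0.21 as reported, 0.07 with loess, 0.10 with processed intensities, 0.04 with normexp and 0.09 without OIR array 2, where the others turned to 0.05. Without OIR array 1 it was 0.32.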

How the data were processed

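The deposited tables hold 15710 spots for each of the 6 arrays, as Agilent Feature Extraction 11.0.1.1 wrote them for the authors. The deposited values are intensities of each channel, background-subtracted or processed, with a flag for signals well above background, for outliers and for saturation. No circRNA spot was saturated (0 spots).

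Signals under 1 were set to 1 for the choice of members. The log2 ratio of Cy5 (IP) to Cy3 (Sup) was reduced by its mean over 306 spike-in spots (102 probes, recognised by their names alone), and the level was 1 / (1 + 2 to the minus that ratio). The members and lists were chosen with earlier results of these data known. For the comparisons each channel was scaled to the spike-in mean, quantity was taken as normalized IP and abundance as normalized IP plus Sup. Outlier spots were left out of the fits, which affected 16 members on some array. OIR was compared with RA on log2 values by lmFit and eBayes of limma (version 3.58.1, R 4.3.3). The fit covered the 10480 circRNA probes that, on 3 arrays or more, had 1 channel or both well above background. The study's threshold (1.5-fold, p under 0.05) was applied with limma in place of its Student's t-test, and Benjamini-Hochberg adjustment was applied as well. All 1103 members passed this filter, which is looser than the rule that chose them. The fits were tested on simulated data with independent noise for each probe. No shift shared by the probes of an array was simulated, so this does not bear on the scaling. Samples are separate pools of retinas as far as the methods say.

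Members named were those with the highest level, the highest abundance, the largest or smallest RA spread, those at the bound and those with the smallest p past the threshold without overlap between groups. Fewer were named because identifiers are not paired with names. Lists of host genes could not be used for the same reason. A gene symbol was found for 46 of the 50 linear probes through their accessions. Alternatives were other normalizations, background corrections, filters and scales, Student's test, blocks and each array left out. Choices added after seeing the data were bright spike-in spots, the spike-in factor moved by 1 standard error and the rule applied to OIR arrays.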

Additional observations from a re-analysis of the deposited data

How the results depend on the processing

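The counts past the study's threshold depended more on the scaling than on the filter, the test or a block. Counts by unadjusted p alone also depended on the test and the filter. In level, 4 members with p under 0.05 by limma became 55 with Student's test. In quantity, 149 became 264 with Student's test and 293 with no filter, and in abundance 78 became 150 and 112. The 2 circRNAs called in level became 10 on the log2 ratio scale, 1 under median centring, 1 under loess and 0 under normexp, and 2 to 4 without single arrays, with 4 without OIR array 1. The 47 called in quantity became 6 without spike-in scaling, 316 under median centring, 30 under loess, 16 with processed intensities, 5 under normexp and 24 with bright spike-in spots alone, an alternative chosen after seeing the data. They ranged from 29 to 87 without single arrays. The 20 called in abundance became 2, 263 and 34 under the first 3 of these, 3 under normexp and 13 with bright spike-in spots. They ranged from 11 to 42 without single arrays, with 36 without RA array 1, 11 without RA array 2, 42 without OIR array 2 and 35 without OIR array 3, and without OIR array 1 there were 8 higher and 11 lower in place of 15 and 5. After Benjamini-Hochberg adjustment, members past it in quantity numbered 0 as reported, 2 with the stricter filter, 2 with no filter, 1 with Student's test and 1 with processed intensities.

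The 1040 members with an OIR mean of at least 50% became 684 with processed intensities and 1001 to 1066 without single OIR arrays. The number of circRNAs at 50% or more in RA, 1103, became 2390 without spike-in scaling, 3294 under median centring, 2959 under loess and 2044 with the looser filter. It was 1583 under normexp and 1045 to 1142 without single RA arrays. Under median centring the bound is the median circRNA rather than the spike-ins. In 52 of 376 comparisons of a named change with an alternative it no longer passed the threshold. Its direction could hardly turn when an array was left out, since named changes had no overlap between groups.

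The replicate numbers gave no sign of pairing, since arrays with the same number did not deviate together (correlations of -0.17, -0.015 and -0.031). Arrays with different numbers were not compared in this way, so whether the samples were paired is not settled. With the replicate number as a block the calls were 2 in level, 49 in quantity and 20 in abundance, and with the scan day as a block 2, 50 and 20. Dim circRNAs limit the precision, since the RA spread of the level was 4.03 points in the dimmest of 5 abundance classes.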
